A study of Homo sapiens with 4 samples.

Results

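Laminins are cross-shaped proteins of the basement membrane, each built from 1 α, 1 β and 1 γ chain that join through a coiled coil. Nidogens are rod-like proteins that bind the γ1 chain and collagen IV and so link the laminin and collagen networks. The chains and nidogens described here are the 9 genes LAMA3, LAMA4, LAMA5, LAMB1, LAMB2, LAMB3, LAMC1, NID1 and NID2, chosen by name from the 35993 genes of the table. Each laminin is named by its chains, so that laminin-511 holds α5, β1 and γ1. Cells bind laminins with the integrins α3β1, α6β1 and α6β4 and with dystroglycan, and laminin-332, an epithelial laminin that holds α3 and β3, anchors the hemidesmosome through α6β4. In the breast, laminins of the basement membrane separate the epithelium from the stroma.

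The RNA-Seq was made from MDA-MB-231 cells, an established human line of triple negative breast cancer, transfected with 1 siRNA against CTGF (siCTGF, gene symbol CCN2) or 1 control siRNA (siControl) and then given kahweol, a coffee diterpene, or nothing. The 4 libraries were siCTGF cells with 50 µM kahweol for 48 h, siControl cells with the same kahweol treatment, untreated siCTGF cells and untreated siControl cells. All cells were kept in medium without serum before and during the treatment, and no vehicle is named for the untreated cells, so an effect of the solvent and of kahweol cannot be told apart. Each condition had 1 library of 1 line and no replicate, and the level of a transcript per cell and the number of cells cannot be told apart in such bulk RNA.

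The total count ranged from 44781516 to 59129784 reads, and the filter on low counts (a mean of 10 or more reads over the libraries) kept 16599 genes, among them 7 of the 9 members. Counts were scaled to CPM (counts scaled to library size) with TMM, whose factors were 0.939 and 0.964 in the kahweol-treated libraries and 1.04 and 1.06 in the untreated ones. Scaling by the total count instead moved the median log2 fold change of all kept genes to -0.15 with kahweol in siCTGF as well as in siControl cells, so kahweol changes below are relative to the TMM median of all genes (-0.0034 in siCTGF and -0.02 in siControl). CCN2 was at 63.6 CPM in siCTGF against 159 CPM in siControl cells when untreated, and at 31.8 CPM against 186 CPM with kahweol. The fit over the 4 libraries gave CCN2 a log2 fold change of -1.93 with siCTGF and an adjusted p of 0.055 (edgeR quasi-likelihood test). The mesenchymal marker VIM was at 2080 to 2820 TPM (StringTie's level per transcript length). The 5 mesenchymal markers summed to 3150 and 2880 TPM in kahweol-treated siCTGF and siControl cells, against 3950 and 3890 TPM in the untreated ones, and mitochondrial rRNA took 6.01% and 4.33% of counts with kahweol, against 3.11% and 3.94% without; their part in the kahweol changes was not tested. The luminal marker ESR1 was at 0.0281 TPM or less, although the 7 luminal markers summed to 504 to 517 TPM, mostly from KRT18 (464 to 478 TPM). Of the fibroblast markers, 5 of 7 stayed under 0.5 TPM, and their sum was 4.21 to 6.16 TPM. Among the leukocyte markers, PTPRC and CD3E stayed under 0.5 TPM, with a sum of 1.09 to 2.24 TPM for the 4 genes of that list.

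The chains differed widely in level. LAMB3, the β3 chain of laminin-332, was the most abundant member in every library and stood at 353 and 420 TPM in kahweol-treated siCTGF and siControl cells, against 377 and 490 TPM in untreated siCTGF and siControl cells. It lay above 98.6% of protein-coding genes or more in each library. LAMB2, the β2 chain found in vascular and neuromuscular basement membranes among others, came next with 62.9 and 62.8 TPM in kahweol-treated siCTGF and siControl cells, against 86.4 and 97.0 TPM in the untreated ones. LAMC1 encodes γ1, the γ chain of most laminins, and had 48.5 and 56.8 TPM with kahweol, against 59.2 and 78.3 TPM without, in siCTGF and siControl cells. LAMB2 and LAMC1 were the closest neighbours in this order, with LAMB2 at 1.11 to 1.46 times the TPM of LAMC1, and with 1 library per condition no spread between cultures can be set beside that ratio.

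LAMB1, the β1 chain of the widely expressed laminins, had 12.4 and 14.1 TPM in kahweol-treated siCTGF and siControl cells, against 24.6 and 27.8 TPM in the untreated ones. LAMA5, the α5 chain of the laminins of most adult epithelia, had 8.63 and 10.7 TPM with kahweol and 10.9 and 19.0 TPM without, in siCTGF and siControl cells. The untreated siControl library alone was high for LAMA5, and the other 3 lay between 8.63 and 10.9 TPM. LAMA3, the α3 chain, was lower, at 3.75 and 3.65 TPM with kahweol and 4.40 and 5.42 TPM without. LAMA4, the α4 chain of endothelial and mesenchymal laminins, was under 1 TPM throughout, with 0.260 and 0.227 TPM with kahweol and 0.532 and 0.461 TPM without. The order LAMB3, LAMB2, LAMC1, LAMB1, LAMA5, LAMA3 and LAMA4 was the same in the 4 libraries.

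The nidogens were near 0. NID1 had 4 counts in kahweol-treated siCTGF cells and 0 in the other 3 libraries. NID2 had 2 counts in kahweol-treated siCTGF cells, 14 counts in untreated siCTGF cells and 0 in both siControl libraries. A count of 0 allows a level of up to 0.135 and 0.139 CPM in the kahweol-treated siCTGF and siControl libraries and of up to 0.111 and 0.0960 CPM in the untreated ones (3 fragments of 2 reads each, counting error only). The 14 counts of NID2 (0.259 CPM) lay above what a 0 allows in untreated siControl cells. Both genes failed the filter on low counts and were left out of the comparisons, and the share of NID1 among the nidogens was not computed.

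**Figure D1:**
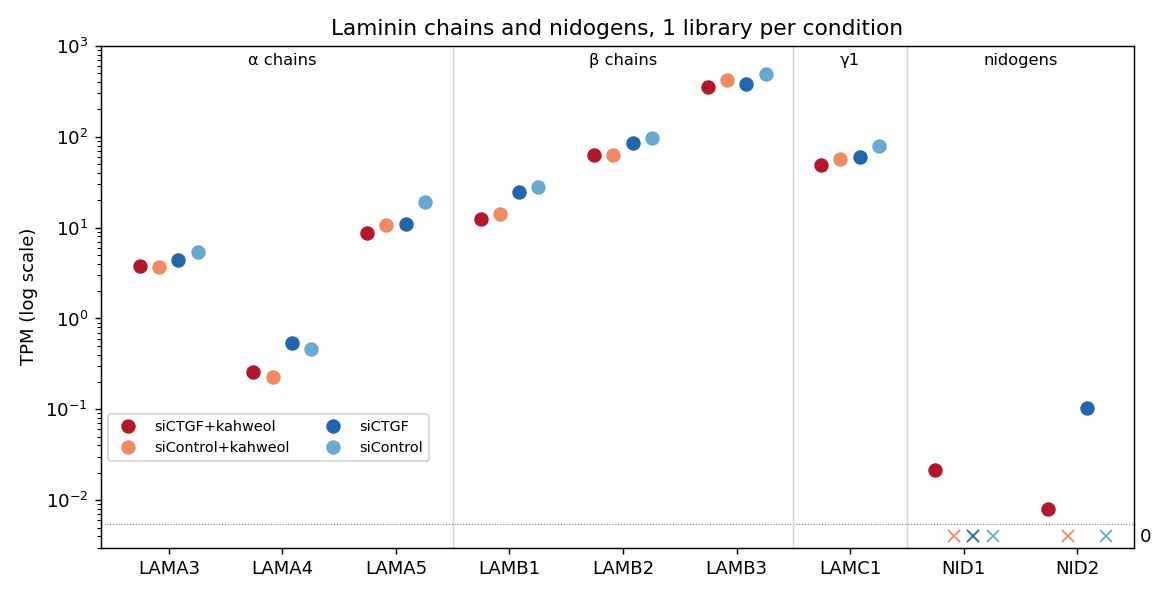
Level of each laminin chain and nidogen in TPM on a log axis, with 1 point per library, colored by condition, and crosses for a value of 0. LAMB3 lies between 353 and 490 TPM, the α chains lie at 19.0 TPM or less, and the nidogens are at or near 0.

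Summed over the chains described here, the α chains were far scarcer than the β chains. The α chains came to 12.6 and 14.5 TPM in kahweol-treated siCTGF and siControl cells, against 15.9 and 24.9 TPM in the untreated ones. The β chains came to 428.6 and 497.1 TPM with kahweol, against 488.4 and 615.0 TPM without. The sum of the β chains was therefore 33.9 and 34.2 times that of the α chains with kahweol and 30.8 and 24.7 times without, in siCTGF and siControl cells. LAMB3 alone made up 82.4% and 84.5% of that β sum with kahweol and 77.3% and 79.7% without, so the ratio rests mostly on this chain. In each of the laminins made up only of the chains described here (laminin-311, laminin-321, laminin-411, laminin-421, laminin-511 and laminin-521), the α chain had the lowest TPM of its 3 chains in the 4 libraries. For laminin-511, the most abundant chain exceeded α5 by 5.63 and 5.33 times with kahweol and by 5.42 and 4.13 times without. For laminin-411, the most abundant chain exceeded α4 by 187 and 250 times with kahweol and by 111 and 170 times without. These are transcript levels, and neither assembled trimers nor protein were measured.

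The kahweol comparison asks how the compound changed the chains in cells with and without the CTGF siRNA. LAMB1 and LAMB2 fell with kahweol, and no member was called higher by the fit. LAMB1 (gene ID 3912, chr7:107564244-107643606 on the minus strand of GRCh37.p13) was at 42.4 and 45.3 CPM in kahweol-treated siCTGF and siControl cells, against 70.0 and 76.2 CPM in untreated siCTGF and siControl cells. Both treated libraries lay well under both untreated ones. The log2 fold change was -0.72 in siCTGF cells (95% counting interval -0.84 to -0.61) and -0.75 in siControl cells (-0.86 to -0.64). In the fit over the 4 libraries, 2 against 2 with the siRNA as covariate, it was -0.74 ± 0.09 (SE) with an adjusted p of 6.1e-04 (edgeR quasi-likelihood test). That fit has 1 residual degree of freedom, counts any interaction between the siRNA and kahweol as noise and borrows its spread from all genes.

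LAMB2 (gene ID 3913, chr3:49158547-49170483 on the minus strand) fell less. It was at 216 and 203 CPM in kahweol-treated siCTGF and siControl cells, against 248 and 268 CPM in the untreated ones. The treated and untreated values did not overlap, as for LAMB1 and also for LAMA3 and LAMA4, which the fit did not call. The share of all genes separated in this way is not given here. The log2 fold change was -0.20 (-0.25 to -0.14) in siCTGF cells and -0.40 (-0.45 to -0.35) in siControl cells, and the fit gave -0.30 ± 0.08 (SE) with an adjusted p of 0.017 by edgeR. The pseudogene LAMB2P1, with which reads could be shared, held 6 to 13 counts, against 8770 to 16725 for LAMB2.

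The α chains were also lower in each treated library, without passing the threshold of the fit. LAMA5 was at 59.6 and 69.2 CPM in kahweol-treated siCTGF and siControl cells, against 62.9 and 105 CPM in the untreated ones, so the treated siControl and untreated siCTGF values overlapped. Its log2 fold change was -0.08 (-0.18 to 0.03) in siCTGF cells and -0.60 (-0.69 to -0.51) in siControl cells, and its adjusted p by edgeR was 0.069. In siCTGF cells that value was -0.23 with total counts and -0.34 from log2(TPM + 0.1), where the medians over all kept genes were -0.15 and -0.25. With DESeq2 and limma-voom, that adjusted p was 0.048 and 0.032. LAMA3 was at 19.3 and 21.6 CPM with kahweol, against 22.8 and 27.1 CPM without, with an adjusted p of 0.056 by edgeR. LAMA4 held 51 and 42 counts in treated siCTGF and siControl cells, against 105 and 100 in untreated ones. At these counts the interval of its log2 fold change was wide, -1.45 to -0.0087 in siCTGF and -1.53 to 0.04 in siControl cells, and its adjusted p by edgeR was 0.17. The summed TPM of 4 endothelial markers was also lower, at 0.261 and 0.335 TPM with kahweol against 1.15 and 1.38 TPM without. Most of the sum without kahweol was CDH5, at 0.0735 and 0.0727 TPM with kahweol against 0.708 and 0.887 TPM without. The other 3 genes (PECAM1, VWF and TEK) stayed under 0.5 TPM in the 4 libraries. The part of these markers in the LAMA4 values was not tested.

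LAMB3 and LAMC1 had the smallest fitted changes among the kept members. LAMB3 was at 892 and 999 CPM in kahweol-treated siCTGF and siControl cells, against 789 and 987 CPM in the untreated ones. Its log2 fold change was 0.18 (0.15 to 0.20) in siCTGF and 0.02 (-0.0078 to 0.04) in siControl cells on the TMM scale, but -0.10 and -0.22 from log2(TPM + 0.1), so its direction depended on the scaling. The medians over all kept genes from log2(TPM + 0.1) were -0.25 and -0.24. LAMC1 was at 233 and 256 CPM with kahweol, against 237 and 301 CPM without. The fit gave LAMB3 0.10 ± 0.07 (SE) and LAMC1 -0.13 ± 0.08 (SE), with adjusted p of 0.26 and 0.22 by edgeR.

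Among the 7 members kept, 2 (LAMB1 and LAMB2) were called lower by the fit and 0 higher, where 23.6% of all genes were called lower and 22.9% higher. In siCTGF cells, LAMA4 and LAMB1 were under 0.7 fold, the fold threshold of the study's methods, where 24.2% of all genes were, and no member was over 1.3 fold, where 28.4% of all genes were. In siControl cells, LAMA4, LAMA5 and LAMB1 were under 0.7 fold, where 26.3% of all genes were, and none was over 1.3 fold, where 28.1% were. These counts of 2, 2 and 3 of 7 lay within 2 genes of what the shares over all genes would give. The median log2 fold change of the 7 members was -0.20 in siCTGF and -0.40 in siControl cells, beside -0.0034 and -0.02 over all kept genes.

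**Figure D2:**
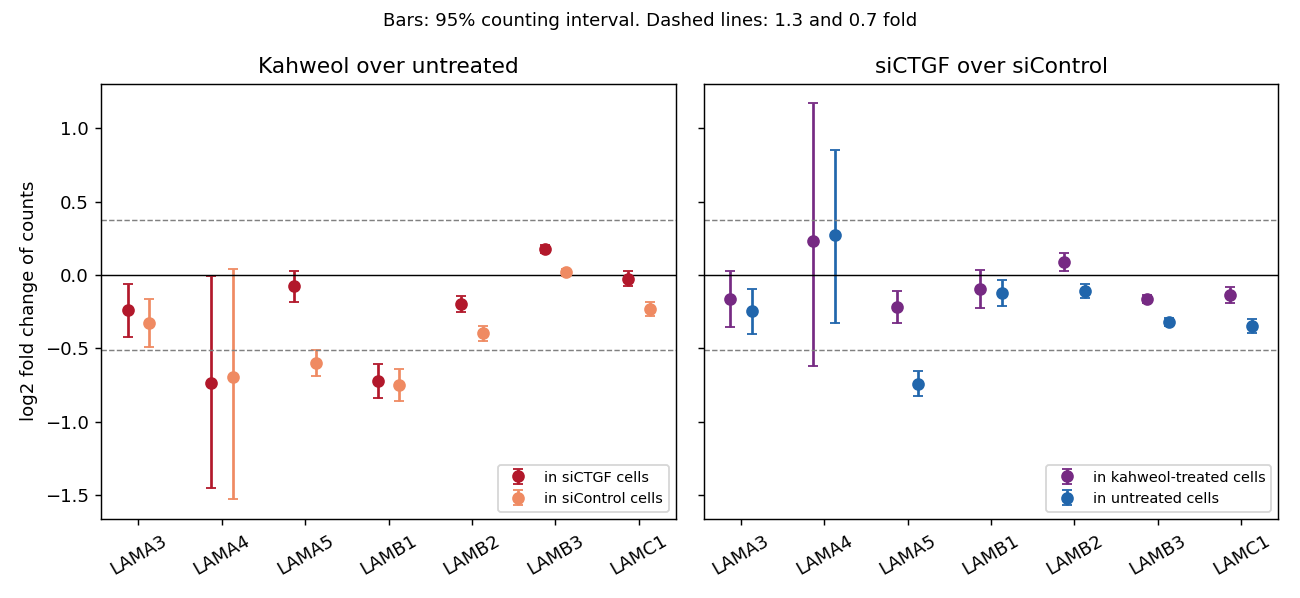
Log2 fold change of each kept member with kahweol (left, in siCTGF and siControl cells) and with siCTGF (right, in kahweol-treated and untreated cells), with points for 1 library against 1, bars for the 95% counting interval, and dashed lines at 1.3 and 0.7 fold. LAMB1 lies at -0.72 and -0.75 in the 2 kahweol comparisons, while LAMA5 lies at -0.08 in siCTGF and -0.60 in siControl cells.

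Ratios of chains within a library do not depend on the scaling between libraries. The TPM of LAMB1 was 0.0352 and 0.0336 times that of LAMB3 in kahweol-treated siCTGF and siControl cells, against 0.0651 and 0.0567 times in the untreated ones. The log2 change of the count ratio of LAMB1 to LAMB3 with kahweol was -0.90 (exact counting interval -1.02 to -0.78) in siCTGF cells and -0.77 (-0.88 to -0.66) in siControl cells. LAMB1 was also lower relative to LAMB2, by -0.53 (-0.65 to -0.40) in siCTGF and -0.35 (-0.47 to -0.23) in siControl cells, and relative to LAMC1, its partner in laminin-511, by -0.70 (-0.82 to -0.57) and -0.52 (-0.63 to -0.40). Among the β chains, LAMB3 took 82.4% and 84.5% of the TPM in kahweol-treated siCTGF and siControl cells, against 77.3% and 79.7% in the untreated ones. LAMB1 took 2.90% and 2.84% with kahweol, against 5.03% and 4.52% without. Thus the mix of β transcripts held less β1 and more β3 in the treated libraries, by amounts larger than counting error, with no measure of the spread between cultures.

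Among the α chains, LAMA5 took the most in each library, with 68.3% and 73.3% in kahweol-treated siCTGF and siControl cells, against 68.9% and 76.3% in the untreated ones. LAMA3 took 29.7% and 25.1% with kahweol, against 27.7% and 21.8% without. In siCTGF cells its share by counts was instead lower with kahweol, so that direction depended on the unit. The log2 change of the count ratio of LAMA5 to LAMA3 with kahweol was 0.16 (-0.05 to 0.37) in siCTGF cells. In siControl cells that change was -0.28 (-0.47 to -0.09). In untreated cells the ratio of LAMA5 to LAMA3 was 2.48 in siCTGF against 3.50 in siControl cells, with a log2 change of the count ratio of -0.49 (-0.67 to -0.32). With kahweol it was 2.3 in siCTGF against 2.92 in siControl cells by TPM, while the count ratio changed by -0.05 (-0.28 to 0.17).

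**Figure D3:**
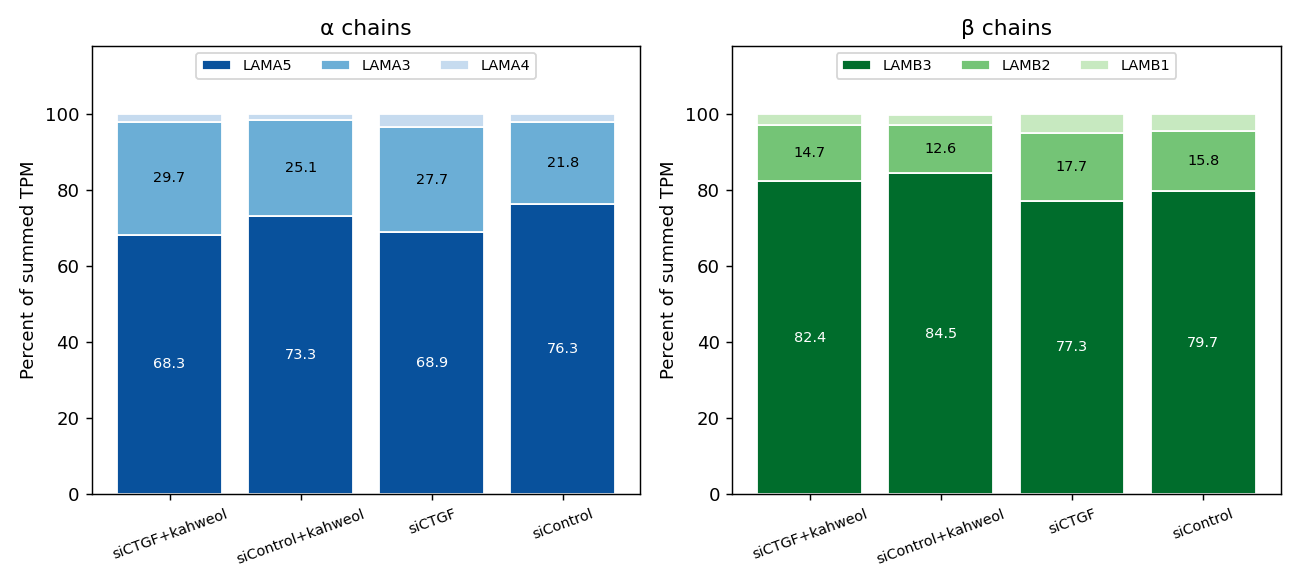
Share of each chain in the summed TPM of the α chains (left) and of the β chains (right), with 1 bar per library. LAMB3 takes 82.4% and 84.5% of the β chains in the kahweol-treated libraries and 77.3% and 79.7% in the untreated ones, and LAMA5 takes 68.3% to 76.3% of the α chains.

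The siCTGF comparison asks how the CTGF siRNA changed the chains. Of the 7 kept members, 6 had a negative log2 fold change in untreated cells, beside 8489 of all 16599 genes kept. With kahweol 5 of the 7 did, beside 8174 of the 16599. No member passed the test over the 4 libraries. LAMA5 (gene ID 3911, chr20:60884121-60942368 on the minus strand) showed the largest difference among the members kept, at 62.9 CPM in siCTGF against 105 CPM in siControl cells when untreated. The log2 fold change was -0.74 (-0.83 to -0.66). With kahweol it was at 59.6 CPM in siCTGF against 69.2 CPM in siControl cells, with -0.22 (-0.32 to -0.11). LAMC1 was at 237 CPM in siCTGF against 301 CPM in siControl cells when untreated (-0.35, -0.39 to -0.30), and at 233 against 256 CPM with kahweol (-0.14, -0.19 to -0.08). LAMB3 was at 789 CPM in siCTGF against 987 CPM in siControl cells when untreated (-0.32, -0.35 to -0.30), and at 892 against 999 CPM with kahweol (-0.16, -0.19 to -0.14). With siCTGF, these 3 chains were thus lower with and without kahweol.

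The fit gave the siCTGF effect as -0.48 ± 0.13 (SE) for LAMA5, -0.24 ± 0.07 for LAMB3 and -0.24 ± 0.08 for LAMC1, with adjusted p of 0.29, 0.28 and 0.36 by edgeR. The other members kept, LAMA3, LAMA4, LAMB1 and LAMB2, had fitted effects of -0.21, 0.26, -0.11 and -0.01. By edgeR, DESeq2 and limma-voom alike, 0 of the 7 were called, and 3 had an unadjusted p under 0.05 by edgeR, as did 9.91% of all genes. Over all genes edgeR called 0.127%, 21 genes in either direction. In untreated cells LAMA5 alone was under 0.7 fold, where 8.99% of all genes were, and no member was over 1.3 fold, where 9.63% were. With kahweol no member was under 0.7 fold or over 1.3 fold, where 7.83% and 14.7% of all genes were. The median log2 fold change of the 7 members was -0.14 with kahweol and -0.25 in untreated cells, beside 0.0041 and -0.0071 over all kept genes.

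The β2 chain was higher relative to LAMB3 and LAMC1 in siCTGF cells, and in untreated cells so was the β1 chain. The log2 change of the count ratio of LAMB2 to LAMB3 with siCTGF was 0.25 (0.19 to 0.32) with kahweol and 0.21 (0.16 to 0.26) in untreated cells, and that of LAMB2 to LAMC1 was 0.23 (0.15 to 0.31) and 0.24 (0.17 to 0.30). For LAMB1 in untreated cells it was 0.20 (0.11 to 0.29) to LAMB3 and 0.23 (0.13 to 0.32) to LAMC1. With kahweol both intervals of LAMB1 held 0. For LAMC1 to LAMB3 the change was 0.03 (-0.04 to 0.09) with kahweol and -0.03 (-0.08 to 0.03) in untreated cells, and both intervals held 0. The TPM of LAMC1 was 0.137 times that of LAMB3 in siCTGF against 0.135 times in siControl cells with kahweol, and 0.157 against 0.160 times in untreated cells.

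The effect of siCTGF was then compared between kahweol-treated and untreated cells, a difference that 4 libraries leave without a test. For LAMA5 the log2 fold change with siCTGF was -0.22 with kahweol and -0.74 in untreated cells, a difference of 0.52 (exact counting interval 0.39 to 0.66). LAMC1, LAMB2 and LAMB3 differed by 0.21 (0.14 to 0.28), 0.20 (0.13 to 0.28) and 0.16 (0.12 to 0.20). The intervals of LAMA3, LAMA4 and LAMB1 held 0. Among the 7885 genes that averaged 1000 reads or more, 3.16% differed by at least as much as LAMA5 in either direction, and 30.7%, 32.7% and 43.6% by at least as much as LAMC1, LAMB2 and LAMB3. The untreated siControl library enters the siCTGF comparison in untreated cells and the kahweol comparison in siControl cells, so the 2 low fold changes of LAMA5 share that library.

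LAMA3 is transcribed from a distal promoter into long mRNAs and from an internal promoter into short ones, which encode the α3B and the α3A chain. The listed long mRNAs measure 10661 and 9834 nt and the short ones 5671 and 5007 nt (GENCODE 29). The ratio of count to FPKM (StringTie's level per kilobase of transcript) gives the mean length of the transcripts counted for a gene, set here to the 7889 nt of LAMC1, which has 1 listed mRNA. For LAMA3 this mean was 8.47 kb in kahweol-treated siCTGF cells and 10.4 kb in kahweol-treated siControl cells, and it was 10.2 kb in untreated siCTGF as well as in untreated siControl cells. The kahweol-treated siCTGF library alone thus had a mean between the short and the long forms. LAMA3 had 855 counts in that library, and the split of reads between forms was StringTie's, so no interval was given. The log2 fold change of LAMA3 with siCTGF under kahweol was -0.16 by counts and 0.04 by log2(TPM + 0.1), a direction that depended on the unit. The means of LAMA5, LAMB1, LAMB2 and LAMB3 varied by under 0.1 kb between libraries. For LAMA4, with few reads, the means of 7.12 to 7.51 kb exceeded the listed mRNAs of up to 6547 nt.

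**Figure D4:**
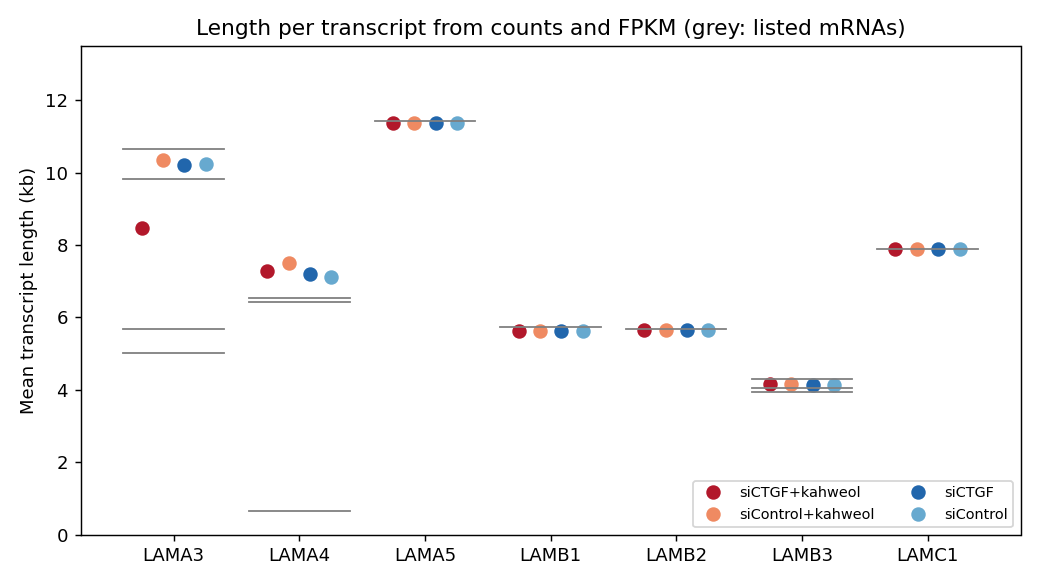
Mean transcript length in kb of each kept member, from its count and FPKM, with 1 point per library, and grey lines at the lengths of the listed mRNAs. LAMA3 lies at 8.47 kb in kahweol-treated siCTGF cells and at 10.2 to 10.4 kb in the other 3 libraries, and LAMC1 is fixed at its own length.

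The promoters of the members were compared for sequence motifs. RefSeq lists 11 promoters for the 9 members on GRCh38.p14, 3 of them for LAMB3, and each was searched on both strands, from 250 bases before to 50 bases after the start, for TGANTCA (AP-1), GGAATG (TEAD), TGANNNNGC (antioxidant response element) and GGGCGG (GC box). The GC box was found in 10 of the 11, beside 45.0% of all 35116 promoters. The first and second LAMB3 promoters start 96 bases apart and share 1 GC box, which was counted in both. There were 5 copies in LAMA5 and 4 each in LAMB1 and NID2. The members' promoters had a GC content of 51.3% to 82.7%, beside a median of 58.7% over all promoters. The AP-1 letters were found in 2 of the 11, LAMA3 and the third LAMB3 promoter, beside 7.7% of all promoters, those of the antioxidant response element in 4 of 11, beside 41.8%, and those of TEAD in 0 of 11, beside 14.0%. The listed LAMA3 promoter lies at the start of the short mRNAs, and the distal promoter of the long mRNAs was not searched. The mean length of LAMA3 transcripts lay near the long mRNAs, at 10.2 to 10.4 kb, except in kahweol-treated siCTGF cells (8.47 kb). The AP-1 matches of the listed LAMA3 promoter start 125 and 69 bases before the start site. Of these matches, 1 overlaps the antioxidant response element match of that promoter. A match is no evidence of a factor's binding, which was not measured.

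The 250 bases before the start are shown for the members called with kahweol (LAMB1, LAMB2). LAMA5 is shown because its value stood apart in untreated siControl cells. The chains of laminin-332 with AP-1 letters are shown by the promoter of the short LAMA3 mRNAs and the third LAMB3 promoter. All are 5′ to 3′ on the strand of the gene, with matches of any of the motifs in capitals. LAMB1 is at chr7:108003162-108003411, LAMB2 at chr3:49133051-49133300, LAMA5 at chr20:62367313-62367562 and LAMB3 at chr1:209651375-209651624, all on the minus strand, and LAMA3 is at chr18:23872770-23873019 on the plus strand of GRCh38.p14.
LAMB1: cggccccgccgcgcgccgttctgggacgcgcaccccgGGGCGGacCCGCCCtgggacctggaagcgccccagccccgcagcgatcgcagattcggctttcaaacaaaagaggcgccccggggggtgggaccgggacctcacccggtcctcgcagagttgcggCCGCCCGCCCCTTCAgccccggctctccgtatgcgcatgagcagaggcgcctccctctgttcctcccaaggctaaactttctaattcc
LAMB2: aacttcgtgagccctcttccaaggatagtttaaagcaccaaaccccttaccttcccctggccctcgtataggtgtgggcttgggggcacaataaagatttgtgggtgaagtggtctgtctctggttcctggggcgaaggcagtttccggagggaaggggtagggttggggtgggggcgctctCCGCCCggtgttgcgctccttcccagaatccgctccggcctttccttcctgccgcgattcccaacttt
LAMA5: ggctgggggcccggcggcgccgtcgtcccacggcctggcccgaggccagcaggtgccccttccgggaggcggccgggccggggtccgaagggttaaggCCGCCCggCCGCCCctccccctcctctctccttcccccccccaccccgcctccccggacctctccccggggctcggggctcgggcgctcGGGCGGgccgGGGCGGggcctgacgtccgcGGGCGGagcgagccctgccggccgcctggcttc
LAMB3: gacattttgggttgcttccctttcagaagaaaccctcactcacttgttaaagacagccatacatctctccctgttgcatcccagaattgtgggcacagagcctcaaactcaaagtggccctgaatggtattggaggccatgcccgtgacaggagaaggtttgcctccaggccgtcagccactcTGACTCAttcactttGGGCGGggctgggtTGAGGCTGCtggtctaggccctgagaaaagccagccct
LAMA3: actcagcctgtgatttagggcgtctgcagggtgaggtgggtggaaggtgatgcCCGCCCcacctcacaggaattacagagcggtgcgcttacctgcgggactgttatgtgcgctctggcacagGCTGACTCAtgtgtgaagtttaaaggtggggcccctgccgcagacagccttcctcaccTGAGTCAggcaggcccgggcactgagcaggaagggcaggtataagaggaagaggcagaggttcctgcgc
LAMB1 and LAMA5 show clusters of GC boxes, LAMB2 shows 1, and the capitals of LAMB3 and LAMA3 include TGACTCA. LAMB1 and LAMB2, both lower with kahweol, hold the GC box, as do 45.0% of all promoters. LAMB3 and LAMC1, with the smallest fitted kahweol changes among the kept members, hold it too. LAMA4, under 0.7 fold in both kahweol comparisons, holds none.

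Around the laminins, most receptors fell with kahweol. Of 10 laminin receptors kept, 7 were called lower and 0 higher, where 23.6% of all genes were called lower and 22.9% higher. The median fitted log2 change of the receptors was -0.64, beside -0.01 over all genes. ITGB4, the β4 integrin that binds laminin-332, was at 10.3 and 8.71 CPM in kahweol-treated siCTGF and siControl cells, against 24.8 and 32.3 CPM in the untreated ones, with a fitted change of -1.58 ± 0.16 (SE) and an adjusted p of 2.4e-04 by edgeR. MCAM, a receptor of laminin-411, was at 19.3 and 22.8 CPM with kahweol, against 42.5 and 56.9 CPM without. All 6 hemidesmosome genes kept were called lower, beside 23.6% of all genes, with a median of -0.93. They share ITGB4, ITGA6 and CD151 with the receptor list. COL17A1, the transmembrane collagen of the hemidesmosome, was at 14.6 and 9.03 CPM with kahweol, against 30.9 and 35.7 CPM without.

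Of 20 other basement membrane genes kept, 8 were called lower and 1 higher, with a median of -0.46, where 23.6% and 22.9% of all genes were called lower and higher. SPARC, a collagen-binding matricellular protein, was at 7.75 and 15.2 CPM with kahweol, against 19.3 and 33.8 CPM without. NPNT, a ligand of integrin α8β1, was at 1.10 and 1.62 CPM with kahweol, against 3.88 and 3.86 CPM without. HMCN1, a fibulin-like matrix protein, was the one that rose, with 5.65 and 8.66 CPM with kahweol, against 3.44 and 4.96 CPM without, and an adjusted p of 0.019 by edgeR. Among 7 proteases kept that cut laminins or nidogens, 3 were called lower and 0 higher, a count near the 23.6% of all genes called lower. PLAU (urokinase) and PLAT (tissue plasminogen activator), which activate plasminogen, had fitted changes of -1.53 ± 0.08 and -1.65 ± 0.11 (SE). TLL2, a tolloid-like protease, had 1.35 and 1.46 CPM with kahweol, against 0.832 and 0.816 CPM without, with an adjusted p of 0.20 by edgeR.

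Of 16 genes that build or glycosylate dystroglycan's laminin-binding sugar, 7 were called lower and 1 higher, with a median of -0.30, beside the same 23.6% and 22.9% of all genes. LARGE2, which extends that sugar, was at 0.879 and 0.880 CPM with kahweol, against 6.06 and 6.34 CPM without, and DPM2, a subunit of the enzyme that makes dolichol-phosphate mannose, was at 14.9 and 12.4 CPM, against 25.7 and 24.8 CPM. Of 4 netrin and laminin-domain genes kept, none was called by edgeR, DESeq2 or limma-voom, and 0 had an unadjusted p under 0.05 by edgeR.

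With siCTGF, edgeR called 0 of the 60 genes in these lists, 12 had an unadjusted p under 0.05 (9.91% of all genes), and DESeq2 and limma-voom each called 3 (0.771% and 0.361% of all genes). SPARC and HMCN1 were under 0.7 fold in both siCTGF comparisons. SPARC was at 7.75 CPM in siCTGF against 15.2 CPM in siControl cells with kahweol and at 19.3 against 33.8 CPM in untreated cells, with an adjusted p of 0.055 by edgeR.

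**Figure D5:**
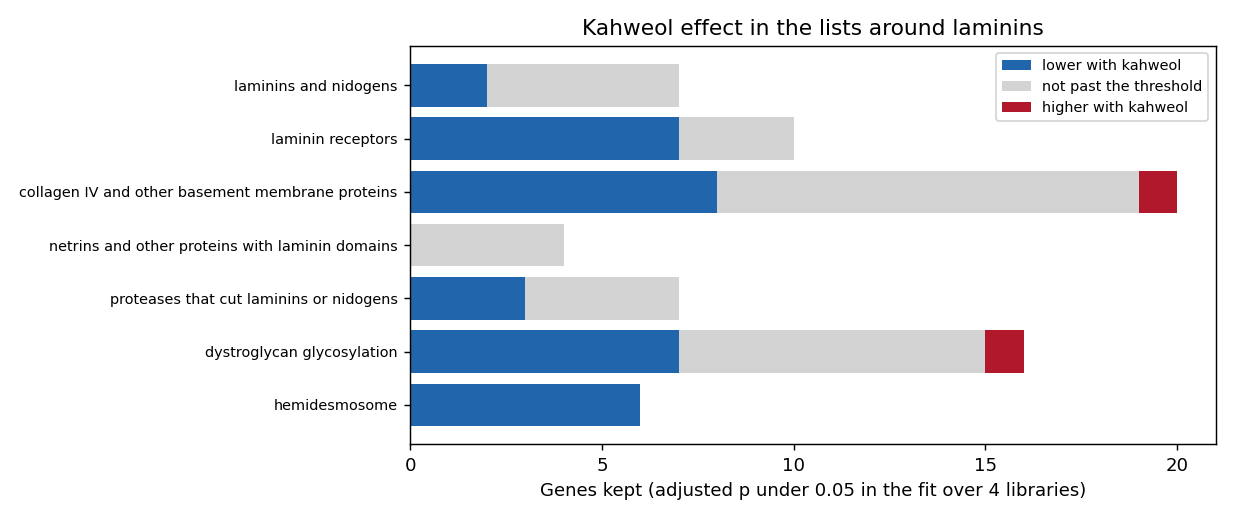
Number of kept genes in each list that the fit over 4 libraries called lower or higher with kahweol (adjusted p under 0.05) or did not call. The 6 hemidesmosome genes, 7 of 10 laminin receptors (3 of them in both lists) and 2 of the 7 laminins were called lower, beside 23.6% of all genes, and the lists were not tested against each other.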

How the data were processed

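RNA from 4 cultures of MDA-MB-231 cells, 1 per condition, was depleted of rRNA and sequenced with a stranded kit in pairs of 100 bp. The submitters' processing notes name FastQC 0.11.7, Trimmomatic 0.38, HISAT2 2.1.0, Bowtie2 2.3.4.1 and StringTie 2.1.3b with GRCh37.p13. The strand setting is not given in the sources used here. The estimated counts deposited by the authors are whole numbers without normalization. The FPKM values and the TPM values were deposited by the authors as StringTie gave them. The coverage signal, deposited by the authors, is the mean depth per base. For the 4 kept members with 1 listed transcript, the ratio of count to coverage differed between libraries by at most 0.0291%, so the counts follow from StringTie's estimates. Without a known strand setting, reads of antisense genes could not be told apart, but those named after members held 5 counts or fewer.

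A gene was kept if it averaged 10 reads or more. Log2 fold changes between single libraries were computed in edgeR 4.0.16 (R 4.3.3) from TMM-scaled CPM with a prior count of 2 and counted at over 1.3 or under 0.7 fold. Counting intervals (95%, Clopper-Pearson for 2 libraries and exact conditional for ratios of ratios, scipy 1.17.1) took 2 reads as 1 fragment. They cover counting error only, since 1 library per condition leaves the spread between cultures unmeasured. The only test was the additive quasi-likelihood fit over the 4 libraries, adjusted by Benjamini-Hochberg over all kept genes (adjusted p under 0.05), whose code was tested on simulated data. DESeq2 1.42.0 and limma 3.58.1 were alternatives, as were other scalings, filters, units, prior counts and thresholds.

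The members and the lists were chosen with earlier results of these data known. Named from the lists were up to 2 genes per effect and direction with a mean count of at least 50 that passed the same fold threshold in both comparisons of the effect, ranked by the smaller change. ESR1, VIM and the other markers are from fixed marker lists. Gene positions are those of the files, on GRCh37.p13, and promoters are from RefSeq on GRCh38.p14. No coordinates were converted, and transcript lengths came from GENCODE 29. Some laminin chains were not analysed here, and the results of some list genes are not reported here.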

Additional observations from a re-analysis of the deposited data

Results flagged for a closer look

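LAMB2 had log2 fold changes with siCTGF of opposite sign in the 2 treatments, each with a counting interval that left out 0. It was 0.09 (0.03 to 0.15) with kahweol, at 216 CPM in siCTGF against 203 CPM in siControl cells, and -0.11 (-0.16 to -0.06) in untreated cells, at 248 against 268 CPM. Under each alternative scaling and unit the value with kahweol stayed positive and the untreated value stayed negative. From log2(TPM + 0.1) the value with kahweol was only 0.0017, and from log2(FPKM + 0.1) it was 0.03. Over all kept genes the median of that comparison was -0.08 and -0.05 in those units, against 0.0041 on the TMM scale. The difference of 0.20 was not tested, since each condition had 1 library, and 32.7% of the genes that averaged 1000 reads or more differed by as much or more in either direction.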

How the results depend on the processing

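No paired analysis was possible because each condition had 1 library, and leaving out a library would leave the additive fit without residual degrees of freedom. With kahweol in siControl cells, 3 members were past the fold threshold, but 5 from log2(TPM + 0.1). With kahweol in siCTGF cells, 2 were past it, but 1 from log2(TPM + 1), where the pseudocount is larger than every LAMA4 value. Both counts stayed within 1.5 times under the other alternatives, and the counts with siCTGF (1 in untreated cells, 0 with kahweol) were the same under each alternative. LAMB1 and LAMB2 kept their kahweol calls under each alternative of the fit, and LAMA5 passed the threshold under 4 of them (adjusted p of 0.048 with DESeq2, 0.032 with limma-voom, 0.046 with DESeq2 size factors and 0.038 with genes of a mean count of at least 100). No member was called with siCTGF under any. Over all genes the number called with siCTGF was 21, against 128 with DESeq2, 60 with limma-voom, 75 with DESeq2 size factors, 103 with a mean count of at least 100 and 0 without the covariate. No called fold change of a member reversed. Of the members' kahweol fold changes under the alternatives, 21 in siCTGF and 23 in siControl cells left the counting interval, and 28 and 26 did not. In an alternative chosen after seeing the data, the difference of the siCTGF effect between treatments was 0.33 for LAMA3 from log2(TPM + 0.1), against 0.08 by counts, and 0.09 for LAMB3 from log2(FPKM + 0.1), against 0.16 by counts; the cause was not tested. The mean length of LAMA3 transcripts was also computed after its values were seen.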
